A study of Mus musculus with 28 samples.

Results

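Slc1a2, Slc1a3, Aqp4, Gja1, Gjb6, Kcnj10, Atp1b2 and Glul encode the membrane transport and coupling machinery of astroglia, together with the enzyme that acts on the glutamate taken up. They were chosen by gene symbol among the 17690 genes with a row in any of the 28 count tables. A row was present in all 28 tables for 6 of the 8, in 24 for Aqp4 and in 22 for Gjb6, and a missing row was taken as 0. Cells were taken from the subependymal zone (SEZ) of adult mice, the stem cell niche lining the lateral ventricles, and sorted 1 per well in 7 ways with 4 libraries of 96 wells each. All mice were of strain Bl/6. The Troy-GFP sort took GFP+ cells of Troy-GFPiresCreER +/ki knock-in mice of 8 to 10 weeks, in which GFP served to identify neural stem cells (NSCs). The Ki67-RFP sort took RFP+ cells of Ki67-tagRFP ki/ki mice of 8 to 10 weeks, a reporter of dividing cells. In Ki67-iresCreER +/ki, Rosa-tdTomato +/ki mice, a single injection of 5 mg tamoxifen labelled cells that were dividing and, through them, their progeny. Their tdTomato+ cells were sorted at day 2 (8 to 10 weeks of age) or day 60 (16 to 19 weeks). The mixed day-60 sort joined tdTomato+ cells of the SEZ or olfactory bulb at day 60 with O4+ oligodendrocytes, from mice of 8 to 19 weeks. The GLAST/EGF sort was gated with an antibody to GLAST and/or Alexa647-EGF, and the Prom1/CD24 sort with antibodies to PROM1 and CD24, both from mice of 8 to 10 weeks. Slc1a3 encodes GLAST itself, so its level in the GLAST/EGF sort follows the gate and is not a finding. The labels do not give the number of mice behind a library, and the 4 libraries of a sort may come from 1 plate, so p-values measure the spread between libraries, which may be technical.

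Astroglia clear glutamate from the extracellular space through the sodium-driven carriers GLT-1 (Slc1a2) and GLAST (Slc1a3), and glutamine synthetase (Glul) turns it into glutamine. Potassium released by neurons enters through the inward rectifier Kir4.1 (Kcnj10) and the sodium pump, of which Atp1b2 encodes a beta subunit. Water moves through aquaporin-4 (Aqp4) at the perivascular endfeet, and connexin 43 (Gja1) and connexin 30 (Gjb6) join neighbouring astroglia through gap junctions. Quiescent NSCs of the SEZ share most of this equipment with parenchymal astrocytes, whereas their transit-amplifying and neuroblast progeny are known to lose it. In the mm10 build, with GENCODE M21 gene models, Slc1a2 lies at chr2:102658659-102790784 (plus strand) and Slc1a3 at chr15:8634124-8710764 (minus strand). Gja1 lies at chr10:56377330-56402513 (plus strand), Gjb6 at chr14:57123303-57133611 (minus strand), and Kcnj10 at chr1:172341210-172374085 (plus strand). Atp1b2 lies at chr11:69599736-69605942 (minus strand) and Glul at chr1:153899944-153909723 (plus strand). Counting was per gene, so exons and UTRs were not told apart.

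The 250 bases before the annotated start of 3 members are printed to show how far their starts differ in CG content. They come from RefSeq on GRCm38.p6 and were found for 6 of the 8 members. They read 5′ to 3′ on the strand of the gene, and capitals mark CG dinucleotides.
Slc1a3, chr15:8710808-8711057, minus strand: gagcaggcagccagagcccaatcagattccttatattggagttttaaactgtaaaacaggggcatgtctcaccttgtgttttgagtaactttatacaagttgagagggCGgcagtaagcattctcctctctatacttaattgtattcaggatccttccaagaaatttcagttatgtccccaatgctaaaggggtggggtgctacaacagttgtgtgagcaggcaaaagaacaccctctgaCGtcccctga
Gja1, chr10:56377050-56377299, plus strand: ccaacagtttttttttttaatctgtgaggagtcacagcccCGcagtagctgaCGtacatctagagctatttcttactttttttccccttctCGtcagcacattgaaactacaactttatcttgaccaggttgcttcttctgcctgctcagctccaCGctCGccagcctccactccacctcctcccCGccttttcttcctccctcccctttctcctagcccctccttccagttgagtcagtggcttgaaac
Kcnj10, chr1:172340960-172341209, plus strand: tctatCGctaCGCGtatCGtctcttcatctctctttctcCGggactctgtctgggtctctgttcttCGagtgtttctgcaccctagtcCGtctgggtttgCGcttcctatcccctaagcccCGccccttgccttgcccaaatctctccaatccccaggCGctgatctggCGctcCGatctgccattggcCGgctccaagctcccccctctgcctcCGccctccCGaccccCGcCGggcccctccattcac
The Slc1a3 stretch holds 2 CG dinucleotides at a GC content of 44.8%, and 18.8% of the 32851 promoters of the table hold fewer CG. The Gja1 stretch holds 6 CG at 50% GC, which is the median number of CG. The Kcnj10 stretch holds 17 CG at 62% GC, and 76.5% of promoters hold fewer. Slc1a2 (1 CG), Gjb6 (5 CG) and Glul (15 CG) were also matched and are not printed. The Slc1a2 window, chr2:102706188-102706437, lies inside the GENCODE gene and overlaps an exon. It therefore does not describe the stretch before the GENCODE start of Slc1a2. Matches to 5 motifs were searched on both strands. TTCNNNGAA, found in 7.02% of promoters, matched in Slc1a3 as TTCCAAGAA from 96 bases before the start, and TATAAA, found in 12.4%, matched on the opposite strand of Slc1a3 from 161 bases before the start. CAGCTG, found in 13% of promoters, matched in Glul from 85 bases before the start. The palindrome of nuclear factor I (0.703% of promoters) and CTTTGT (16.5%) matched in none of the 6. A match or its absence describes letters in this window only.

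Of 2688 wells, 1789 held at least 1000 transcripts and were kept as cells, where the study speaks of about 1500 cells with data of 2500 sequenced. Each sort kept 216 to 349 cells except Prom1/CD24, which kept 64. Library totals ran from 263535 to 575257 estimated transcripts, and from 77795 to 143795 in Prom1/CD24, where 44.3% to 56.8% of molecules were spike-in RNA against 6.57% to 17.7% elsewhere. Expression from 4 Y-linked genes was present in the Troy-GFP and GLAST/EGF libraries (290 to 407 CPM) and at 0 in all others, with the opposite for Xist. Libraries 3 and 4 of GLAST/EGF and 1 and 2 of Troy-GFP carried the name of another flow cell than the other named libraries, and the day-2 libraries carry no flow cell name. Sex, mouse line and age thus differ with the sort and cannot be told apart from it. Flow cell varied within Troy-GFP and GLAST/EGF, and comparisons with these sorts were also run on the libraries of 1 flow cell. In summed libraries, fewer cells of a type and less RNA per cell cannot be told apart either.

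The 8 genes together made up 2.09% of all transcripts in the day-60 tdTomato sort (mean of 4 libraries, 1.95% to 2.17%) and 1.78% in Troy-GFP. The share was 0.848% in GLAST/EGF, 0.484% in mixed day-60 and 0.408% in Prom1/CD24. It was lowest among dividing and recently dividing cells, with 0.121% at day 2 and 0.0899% in Ki67-RFP. The levels below are in CPM, estimated transcripts of the gene scaled by the total over gene rows, for libraries 1 to 4 of each sort in that order.

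Slc1a2, the main glutamate carrier of mature astrocytes, stood at 7314, 7660, 7596 and 7386 CPM in Troy-GFP and at 6362, 7649, 7695 and 7677 CPM at day 60. GLAST/EGF followed at 3375, 3239, 3430 and 3872 CPM. Ki67-RFP held 316, 263, 409 and 342 CPM, day 2 held 188, 158, 591 and 386, mixed day-60 held 370, 564, 440 and 920, and Prom1/CD24 held 354, 1698, 1104 and 832. The ranges of Troy-GFP and day 60 overlapped, both lay above GLAST/EGF, and GLAST/EGF lay above the remaining sorts, whose neighbours in the order of means overlapped. Slc1a3, the carrier that also marks radial glia, was highest at day 60 with 3623, 3846, 3636 and 3699 CPM, above every Troy-GFP library (3082, 3178, 3114 and 2860 CPM). It was at 1718, 1221, 1658 and 1845 CPM in GLAST/EGF, at 538, 1179, 652 and 1263 in mixed day-60, and at 447, 935, 536 and 681 in Prom1/CD24. These ranges overlapped from each sort to the next. Ki67-RFP (177, 163, 174 and 196 CPM) and day 2 (63.7, 74.2, 341 and 262 CPM) lay below them and overlapped each other. Glul, which removes glutamate and ammonia by making glutamine, was at 1809, 2032, 1943 and 1797 CPM at day 60 and at 1995, 2048, 1661 and 1687 in Troy-GFP. Mixed day-60 held 1487, 1420, 990 and 1314 CPM of Glul, GLAST/EGF 968, 1044, 860 and 1116, and Prom1/CD24 1179, 659, 723 and 912. Glul in Ki67-RFP (277, 189, 231 and 251 CPM) and at day 2 (344, 166, 392 and 297 CPM) lay below all of these.

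Aqp4, the water channel, showed the widest span of any member beside Gjb6. It was at 1211, 1076, 1354 and 1073 CPM at day 60, all above the 693, 738, 920 and 678 CPM of Troy-GFP. GLAST/EGF held 313, 177, 259 and 428 CPM, mixed day-60 held 87.8, 452, 230 and 323, and Prom1/CD24 held 258, 94.7, 425 and 257, with overlapping ranges. Day 2 held 7.93, 0, 54.8 and 17.9 CPM of Aqp4, and Ki67-RFP was at 0 in libraries 1 to 3 and at 14 CPM in library 4. Kcnj10 was the only member whose highest mean fell outside the Troy-GFP and day-60 sorts, with 417, 418, 316 and 507 CPM in mixed day-60. Day 60 held 205, 314, 310 and 363 CPM of Kcnj10, Troy-GFP 245, 259, 250 and 241, and GLAST/EGF 270, 154, 205 and 220, and each neighbour in this order overlapped the next. Prom1/CD24 (69.7, 104, 148 and 143 CPM) lay below these 4 sorts, and Ki67-RFP (20.2, 27.2, 34.3 and 21 CPM) and day 2 (7.93, 18.5, 56.8 and 14.2 CPM) lay lowest.

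Atp1b2, the pump subunit also described as an adhesion molecule on glia, was at 3981, 4512, 4107 and 3878 CPM at day 60, above every Troy-GFP library (2595, 2652, 3345 and 2948 CPM). GLAST/EGF held 1689, 820, 1031 and 1366 CPM, mixed day-60 768, 1398, 822 and 1158, and Prom1/CD24 1011, 567, 1362 and 584. Ki67-RFP was at 79, 81.8, 79.6 and 174 CPM and day 2 at 125, 96.3, 436 and 205, so only these 2 sorts lay below all others. Gja1, the main astroglial connexin, was at 1988, 2021, 2136 and 2095 CPM at day 60 and at 1492, 1307, 1355 and 1100 in Troy-GFP, with no overlap. GLAST/EGF held 553, 414, 561 and 676 CPM of Gja1, mixed day-60 208, 352, 222 and 387, Prom1/CD24 212, 133, 320 and 216, day 2 105, 3.69, 256.4 and 157, and Ki67-RFP 18.2, 29.3, 10.8 and 19.2. Day 2 spread most relative to its mean, with library 3 the highest and library 2 the lowest. Gjb6, the second connexin, was at 288, 254, 282 and 345 CPM at day 60 and at 263, 222, 158 and 160 in Troy-GFP. It was at 117, 64.2, 127 and 119 CPM in GLAST/EGF, at 46.5, 56.9, 137 and 113 in Prom1/CD24, and at 40.7, 22.4, 18.5 and 85.5 in mixed day-60. Ki67-RFP gave 1 Gjb6 transcript in 4 libraries, and day 2 gave 9, all in library 3. By mean, GLAST/EGF came after day 60 and Troy-GFP and before every other sort for Slc1a2, both connexins, Aqp4 and Atp1b2. The same rank of Slc1a3 follows the gate.

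**Figure D1:**
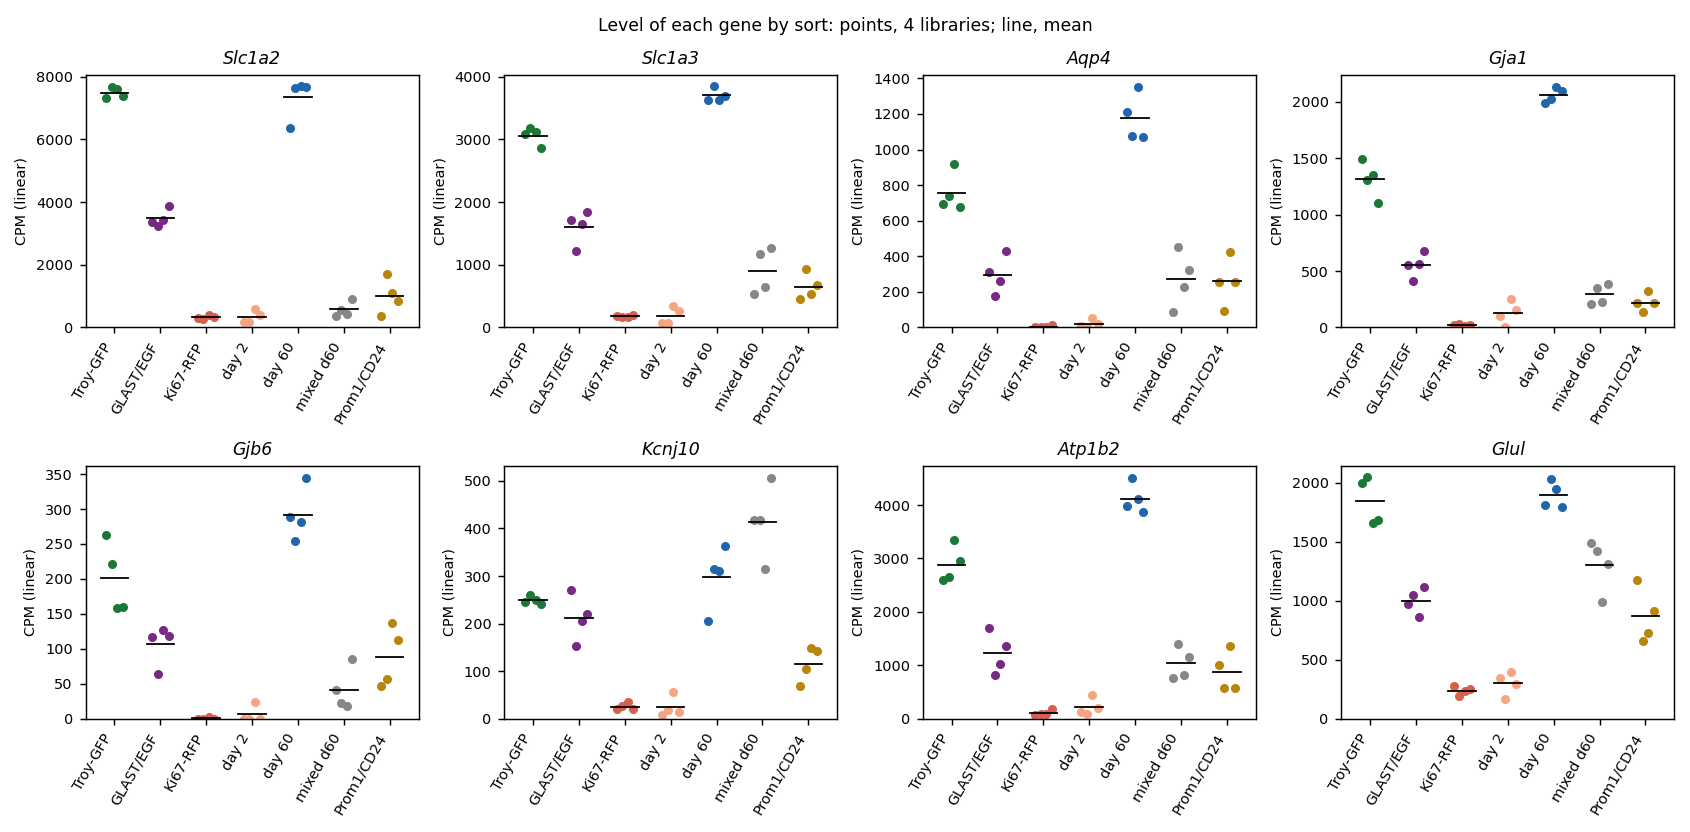
Level of each of the 8 genes in CPM (linear axis from 0, differing between panels) by sort; each point is 1 library and the line is the mean of 4. Troy-GFP and day 60 stand highest for every gene but Kcnj10, whose mean is highest in mixed day-60, and Ki67-RFP and day 2 stand lowest for every gene.

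The comparison of Ki67-RFP with Troy-GFP asks how dividing cells differ from the reporter-marked stem cell population. All 8 members fell in Ki67-RFP by limma voom on the summed libraries, in a comparison where 59.6% of the 8396 genes tested passed in either direction, 31.2% as lower and 28.4% as higher. The median log2 fold of the members was -4.79, against -0.02 over all genes tested. The glutamate carriers fell by 4.62 ± 0.10 (Slc1a2) and 4.22 ± 0.11 (Slc1a3) on the log2 scale (SE, n = 4 against 4 libraries, limma adjusted p = 4.3e-23 and 1.6e-21). Glul changed least, at -3.09 ± 0.12 (limma adjusted p = 1.3e-17), and Kcnj10 was next at -3.38 ± 0.22 (limma adjusted p = 9.8e-13). Atp1b2 was at -4.97 ± 0.17 and Gja1 at -6.23 ± 0.29 (limma adjusted p = 1.7e-18 and 9.8e-16). Aqp4 was at -8.74 ± 0.63 (limma adjusted p = 5.1e-12), resting in Ki67-RFP on library 4 alone. For Gjb6, with 1 transcript against 399, the ratio of Troy-GFP to Ki67-RFP was 441 (95% interval 78.6 to 17444.5), an interval that covers counting error only, as do all such intervals here. Partner genes of the same machinery moved with the members. Fxyd1, a pump regulator, fell by 5.39 ± 0.37, among 6 sodium pump genes tested of which 4 fell and 1 rose. All 7 tested aquaporin and endfoot scaffold genes fell (list median -3.43), among them Hepacam (-4.24 ± 0.24) and Mlc1 (-4.22 ± 0.23), which form a membrane complex in astrocytes. All 10 genes of bicarbonate and other solute transport fell (median -4.41), led by the zinc transporter Slc39a12 (-7.73 ± 0.52) and the bicarbonate cotransporter Slc4a4 (-7.47 ± 0.55), and all 4 glial potassium and chloride channels tested fell, with Kcnk1 at -5.91 ± 0.42. Of 13 other genes of glutamate and glutamine handling, 9 fell and 2 rose (median -2.43), with the GABA carrier Slc6a11 at -5.94 ± 0.78 and the cystine-glutamate exchanger Slc7a11 at -5.50 ± 0.59. Panx1, the 1 gene tested of the list of other connexins and pannexins, rose by 0.90 ± 0.39 (limma adjusted p = 0.047). The 28 marker genes of NSC-like cells, of which 27 are in the tables, summed to 48986 to 52523 CPM in Troy-GFP and to 3176 to 4053 CPM in Ki67-RFP, where Mt3 was at 0, and the part of composition in these folds was not tested.

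The day-60 and day-2 tdTomato sorts compare descendants of dividing cells left in the tissue after 60 days with cells just labelled. All 8 members were higher at day 60, where 67.6% of 7648 genes tested passed, 34.8% as higher and 32.8% as lower. The median log2 fold of the members was 4.81, against 0.01 over all genes. Slc1a2 was higher by 4.83 ± 0.24 and Slc1a3 by 4.80 ± 0.30 (SE, 4 against 4 libraries, limma adjusted p = 2.1e-11 and 3.0e-10). Aqp4 was higher by 6.73 ± 0.60 and Gjb6 by 6.54 ± 0.59 (limma adjusted p = 2.0e-08 and 2.2e-08), the latter against a single day-2 library with any transcript. Gja1 (4.99 ± 0.58), Atp1b2 (4.64 ± 0.26), Kcnj10 (3.94 ± 0.46) and Glul (2.91 ± 0.18) were also higher, with limma adjusted p between 6.0e-11 and 5.3e-07. No day-2 library overlapped any day-60 library for any of the 8 genes. Among the partner genes, all 10 of solute transport (median 4.57), all 7 of the endfoot scaffold (median 4.17) and all 5 glial channels rose. The channels included Kcnj16, which encodes the Kir5.1 subunit known to assemble with the Kcnj10 product (4.49 ± 0.49). Of 12 genes of glutamate and glutamine handling, 8 rose and 4 fell, led by the glutamine transporter Slc38a3 (6.26 ± 0.60). Among the pump genes, Fxyd1 rose by 5.86 ± 0.65 and Fxyd6 fell by 2.99 ± 0.23. The NSC-like markers summed to 61825 to 69203 CPM at day 60 and to 3070 to 7575 CPM at day 2, where Mt3 and Aldh1l1 were at 0, and their part in these folds was not tested.

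Day 2 and Ki67-RFP both sample recently dividing cells through the same gene. Of 5 members tested, 1 passed in limma voom, against 28.5% of 6952 genes tested, 14.3% as higher and 14.2% as lower. This was Atp1b2, higher at day 2 by 0.95 ± 0.31 (limma adjusted p = 0.025). It did not pass with library 1, 2 or 3 of Ki67-RFP left out (0.84 to 0.86), nor with library 3 of day 2 left out (0.46). Gja1 differed by 1.99 ± 0.81 (limma adjusted p = 0.067), Glul by 0.28 ± 0.18 (0.25), Slc1a2 by -0.15 ± 0.24 (0.68) and Slc1a3 by -0.21 ± 0.30 (0.64). Without day-2 library 2, Gja1 (3.15) and Glul (0.54) passed. Aqp4, Gjb6 and Kcnj10 were below the filter on low values. The day-2 values rested on few cells. Of 220 day-2 cells, 5 were NSC-like, and these 5 gave 100% of the Aqp4 and Gjb6 transcripts, 76.9% of Gja1, 65.6% of Atp1b2, 53% of Slc1a3, 46.7% of Slc1a2, 31.5% of Glul and 31.3% of Kcnj10. They lay in libraries 1, 3 and 4 (1, 3 and 1 cells), and library 3 was the highest day-2 library for each of the 8 genes. Without these 5 cells, Aqp4 and Gjb6 were at 0 in all 4 libraries, Gja1 was at 34.9 ± 33 CPM (SD, n = 4) and Atp1b2 at 82.9 ± 19.2 CPM. Atp1b2 then differed from Ki67-RFP by -0.28 (limma adjusted p = 0.43). Slc1a2 was then lower at day 2 by 0.84 and Slc1a3 by 1.06 on the log2 scale, both past the threshold (limma adjusted p = 6.8e-04 and 0.0010). This fit was added after seeing the data. The 2 sorts also differed in cell classes. Neuroblast-like cells were 72.7% of all day-2 cells and 38.1% of Ki67-RFP cells. Progenitor-like cells were 58.1% of Ki67-RFP, while no day-2 cell bore that name and 22.7% were unnamed. The part of these classes in the folds was not tested.

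GLAST/EGF, a sort by surface marker and growth factor binding, was set against Troy-GFP and Ki67-RFP, and these comparisons share those sorts with the ones above and below. In all comparisons with GLAST/EGF, the counts and medians of the members include the gate gene Slc1a3. Against Troy-GFP, 7 of 8 members fell, where 30.4% of 7818 genes tested passed, 15.5% as lower and 14.9% as higher, with a member median of -1.10 against 0.02 over all genes. The 7 lay close together, from -0.97 ± 0.11 (Glul) and -0.98 ± 0.21 (Gjb6) to -1.35 ± 0.15 (Atp1b2) and -1.47 ± 0.18 (Aqp4), with Slc1a2 at -1.18 ± 0.08, the gate gene Slc1a3 at -1.01 ± 0.11 and limma adjusted p between 4.3e-09 and 0.0013. Kcnj10 differed by -0.33 ± 0.15 and did not pass (limma adjusted p = 0.11), though it did without GLAST/EGF library 1 (-0.46). With each cell weighted alike, as the mean of per-cell CPM, 4 of the 7 passed, and Slc1a3 (-0.39), Glul (-0.41) and Gjb6 (-0.22) did not. The Gjb6 call was also lost with cells thinned to 1000 transcripts (-0.25, limma adjusted p = 0.74). All 7 endfoot scaffold genes tested fell (median -1.0), as did 8 of 10 solute transport genes. Against Ki67-RFP all 8 members rose, where 36% of 7798 genes passed, 18.9% as higher and 17.1% as lower, with a member median of 3.49. Slc1a2 rose by 3.40 ± 0.11, the gate gene Slc1a3 by 3.17 ± 0.13, Gja1 by 4.85 ± 0.31, Kcnj10 by 3.01 ± 0.26 and Glul by 2.08 ± 0.12 (limma adjusted p between 5.8e-18 and 1.2e-09). Gjb6, with 181 transcripts against 1, gave a ratio of 232 (95% interval 41.2 to 9226.91). NSC-like cells were 35.6% of the GLAST/EGF cells and 68.8% of the Troy-GFP cells.

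The Prom1/CD24 sort held the fewest cells, and all 8 members fell in it relative to Troy-GFP, where 26% of 5680 genes tested passed, 12.3% as lower and 13.7% as higher. The member median was -1.88, against -0.04 over all genes. Slc1a2 fell most, to -3.08 ± 0.25 on the log2 scale, with Gja1 at -2.72 ± 0.24 and Slc1a3 at -2.30 ± 0.16 (limma adjusted p = 1.2e-06, 2.4e-06 and 2.7e-07). Kcnj10 fell by 1.06 ± 0.23 and Gjb6 by 1.21 ± 0.36, the smallest changes (limma adjusted p = 0.0038 and 0.023). The Gjb6 call was lost without Prom1/CD24 library 2 (-0.95) or Troy-GFP library 1 (-1.10) or 2 (-1.19), and with the libraries of 1 flow cell (-1.08). The Kcnj10 call was lost with cells thinned to 1000 transcripts (-0.73) and, like that of Gjb6 (-1.01), with the mean of per-cell CPM (-1.01). Atp1b3, another beta subunit, rose by 1.54 ± 0.29. These libraries hold 11 to 20 cells each, which limits the precision of each level, and their NSC-like markers summed to 13675 to 24054 CPM.

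The mixed day-60 sort, which adds olfactory bulb cells and O4+ oligodendrocytes, was set against day 60. Of the 8 members, 7 fell, where 43.3% of 8152 genes tested passed, 21.1% as lower and 22.2% as higher, with a member median of -2.38 against 0.00 over all genes. Slc1a2 fell by 3.89 ± 0.18 (limma adjusted p = 2.1e-10), with Slc1a3 at -2.26 ± 0.19. Gja1 was at -3.00 ± 0.16, Gjb6 at -3.03 ± 0.31, Aqp4 at -2.49 ± 0.30 and Atp1b2 at -2.17 ± 0.15. Glul fell by 0.68 ± 0.12 (limma adjusted p = 2.6e-04), and Kcnj10 was at 0.36 ± 0.18 and did not pass (limma adjusted p = 0.11), though it did without mixed library 3 (0.51). The cells behind these transcripts differed by gene. Oligodendrocyte-like cells, 39.8% of the mixed sort (125 cells), gave 58.1% of its Kcnj10 and 56.4% of its Glul transcripts. An unnamed cluster of 20 cells, led by Islr, gave 79.8% of Aqp4, 63.1% of Slc1a3, 53.9% of Gjb6, 49.6% of Slc1a2 and 45.7% of Gja1. A second unnamed cluster of 19 cells, led by Npy, gave 27.7% of Gja1 and 16.4% of Atp1b2. Oligodendrocyte markers summed to 41671 to 46194 CPM in the mixed libraries against 729 to 2816 CPM at day 60. Other genes of the same families rose in the mixed sort. Of 4 other connexin and pannexin genes tested, 3 rose, among them the oligodendrocyte connexin genes Gjb1 (5.89 ± 0.73) and Gjc3 (4.70 ± 0.47). The neuronal glutamate carrier Slc1a1 rose by 4.10 ± 0.61 and the pump subunit Atp1b3 by 2.05 ± 0.16, while Fxyd1 fell by 2.71 ± 0.27.

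**Figure D2:**
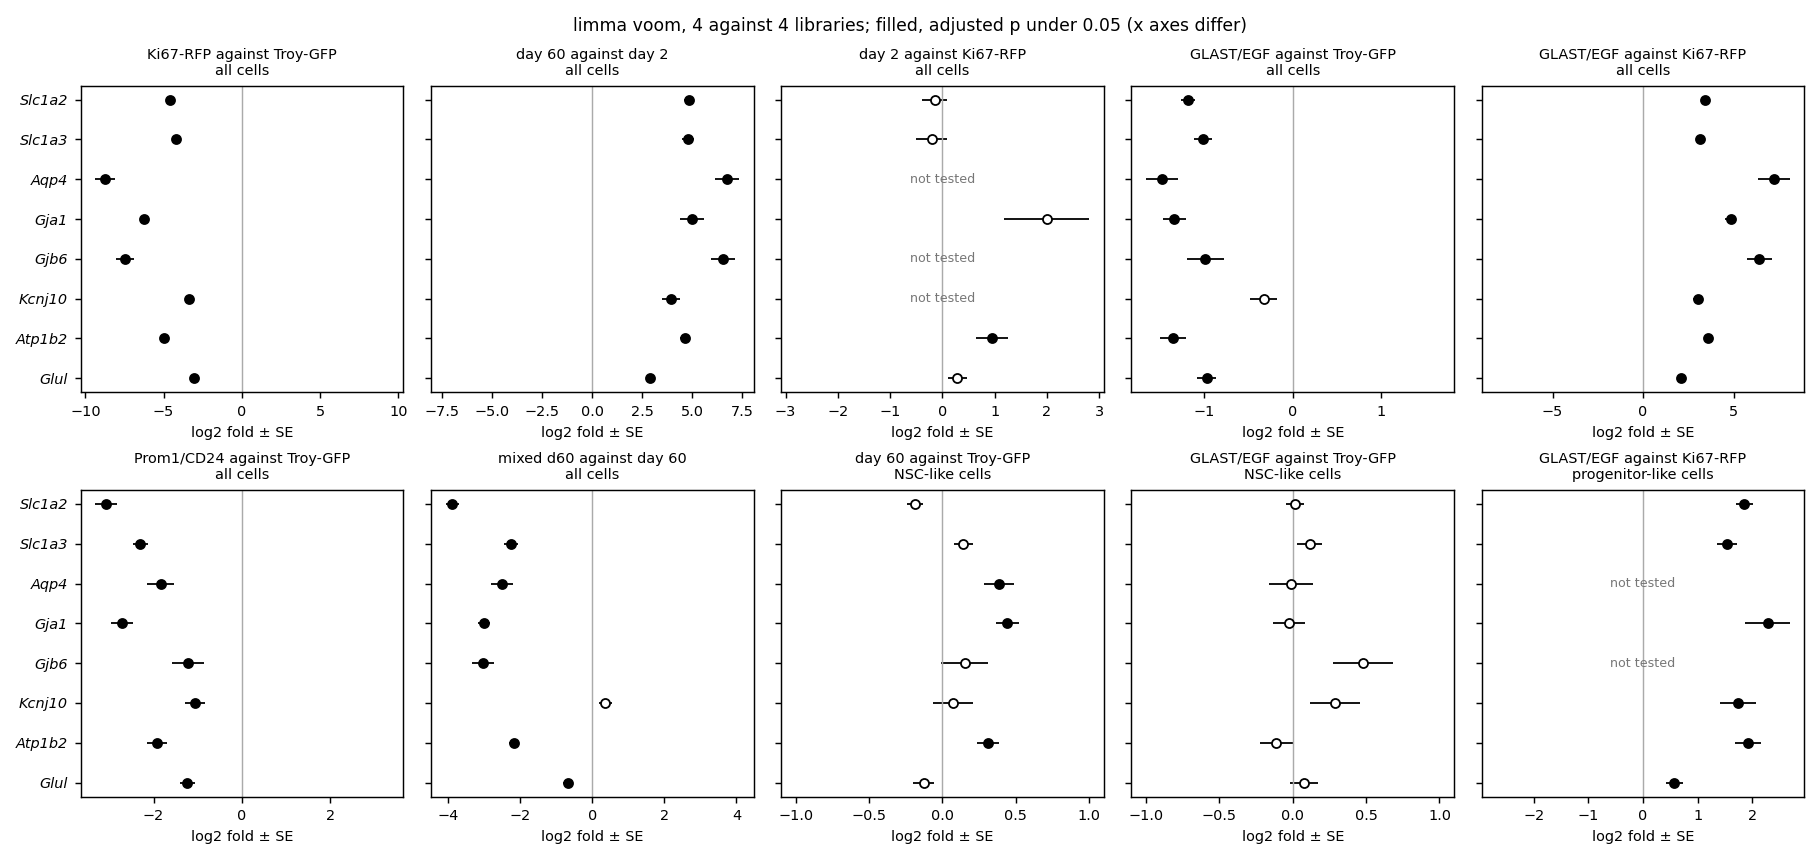
Log2 fold (points) with its SE (bars) of each gene in the 10 comparisons, from limma voom on 4 against 4 libraries, with x axes that differ between panels and filled points for adjusted p under 0.05. All points lie left of 0 for Ki67-RFP against Troy-GFP and right of 0 for day 60 against day 2, and Kcnj10 is the 1 member that did not pass in GLAST/EGF against Troy-GFP and in mixed day-60 against day 60.

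Cells were clustered without the 8 genes and named from fixed markers, so the levels per class are a description with no test. NSC-like is a class of 568 cells that does not tell quiescent NSCs from astrocytes. Pooled over sorts, Slc1a2 stood at 10268 CPM in NSC-like, 1023 CPM in progenitor-like (359 cells) and 109 CPM in neuroblast-like cells (295 cells). Slc1a3 followed the same order with 4774, 458 and 47.2 CPM, and Gja1 with 2279, 75.8 and 6.3 CPM. Kcnj10 ran from 313 over 77.4 to 2.4 CPM. The steps were unequal, since the NSC-like and progenitor-like levels of Kcnj10 lay closer than those of Aqp4 (1242 against 24.7 CPM) or Gjb6 (313 against 5.1 CPM). Glul kept the highest neuroblast-like level relative to its NSC-like level, with 195 against 2540 CPM.

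Detection per cell followed the same order. Slc1a2 was detected in 100% of NSC-like cells, 85% of progenitor-like cells and 29.5% of neuroblast-like cells, and after thinning each cell to 1000 transcripts in 99.6%, 44.3% and 8.8%. Median depth was 5075 transcripts in NSC-like, 8891 in progenitor-like and 3743 in neuroblast-like cells. Aqp4 was detected in 89.8% of NSC-like and 12.3% of progenitor-like cells, and after thinning in 62.9% and 2.5%. Gjb6 was detected in 67.8% of NSC-like cells and in 0.7% of neuroblast-like cells, a class taken here as lacking the gene. All 8 genes were detected together in 45.8% of NSC-like cells (260 cells), with a median of 7 of 8 per cell and 6 after thinning. Progenitor-like cells had a median of 4 and, after thinning, 1, and 25.4% of neuroblast-like cells had none.

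Besides NSC-like, progenitor-like and neuroblast-like cells, other named classes also held Kcnj10 and Glul. The unnamed Islr-led and Agt-led clusters, pooled over sorts, held more Kcnj10 (1456 and 1062 CPM) than any named class. Kcnj10 was at 589 CPM in oligodendrocyte-like cells (142 cells) and 457 CPM in oligodendrocyte precursor-like cells (23 cells), against 313 CPM in NSC-like cells. It was detected in 90.1% of the oligodendrocyte-like cells and, thinned, in 46.5%, against 69.5% and 25.5% of NSC-like cells. Glul was at 1787 CPM in oligodendrocyte-like, 1133 CPM in microglia-like (25 cells) and 1076 CPM in endothelial-like cells (61 cells), all below its NSC-like level. The unnamed Npy-led (3596 CPM) and Islr-led (3520 CPM) clusters lay above that level. In the mixed sort alone, where 4 libraries gave the oligodendrocyte-like class, Kcnj10 was at 581.8 ± 106 CPM (SD, n = 4, range 496 to 721) and Glul at 1777 ± 300 CPM, while Slc1a2 was at 67.4 ± 24.7 CPM. Atp1b2 was at 1104 CPM in choroid plexus-like (12 cells), 856 CPM in oligodendrocyte precursor-like and 796 CPM in mature neuron-like cells (79 cells). Aqp4 outside NSC-like cells was highest among the named classes in the 9 ependymal-like cells (533 CPM), and Gjb6 was not found there or in the 23 oligodendrocyte precursor-like cells.

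**Figure D3:**
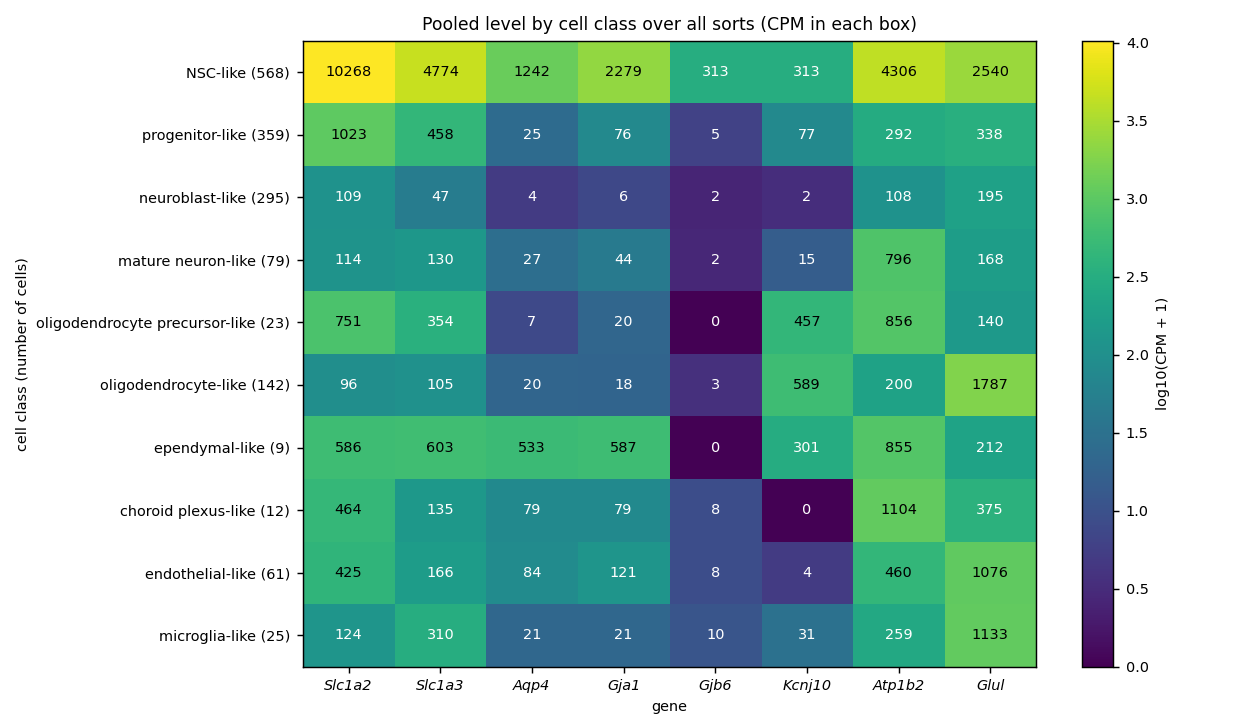
Pooled level of each gene (columns) in 10 cell classes (rows, with the number of cells), all sorts together; colour is log10(CPM + 1) and the number in each box is CPM. Among these 10 named classes, NSC-like cells hold the highest level of 7 genes. Kcnj10 is higher in oligodendrocyte-like (589 CPM) and oligodendrocyte precursor-like (457 CPM) than in NSC-like cells (313 CPM). Unnamed clusters are left out. Of these, the Islr-led cluster holds more Slc1a3 (8777 CPM), Aqp4 (3102 CPM) and Kcnj10 (1456 CPM) than NSC-like cells. It also holds more Glul (3520 CPM), Atp1b2 (5343 CPM) and Gjb6 (388 CPM), but less Slc1a2 and Gja1. The Agt-led cluster holds more Gjb6 (1006 CPM), Atp1b2 (7470 CPM), Aqp4 (2174 CPM), Kcnj10 (1062 CPM) and Gja1 (2584 CPM). Its Slc1a2, Slc1a3 and Glul are lower. The Npy-led cluster holds more Glul (3596 CPM) and Kcnj10 (525 CPM), but less of the other members.

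Within NSC-like cells, day 60 and Troy-GFP compare cells descended from once-dividing cells with reporter-marked cells. The class held 259 day-60 cells and 214 Troy-GFP cells, but in different clusters: 225 of the day-60 cells in a cluster led by Crym, and 154 and 55 of the Troy-GFP cells in a cluster with Y-linked Eif2s3y among its leading genes and in a cluster led by Thbs4. Gja1 was at 2735, 2457, 2637 and 2602 CPM at day 60 and at 2194, 1883, 1906 and 1746 CPM in Troy-GFP, with no overlap. Atp1b2 was at 4875, 4906, 4941 and 4336 CPM against 3429, 3581, 4373 and 4337 CPM. Aqp4 was at 1591, 1207, 1608 and 1199 CPM against 946, 1061, 1233 and 1084 CPM. The last 2 genes overlapped between the sorts. These 3 members rose at day 60, where 2.43% of 6139 genes tested passed, 1.34% as higher and 1.09% as lower. Gja1 rose by 0.44 ± 0.08 (SE, limma adjusted p = 5.5e-04), Atp1b2 by 0.31 ± 0.07 (0.0098) and Aqp4 by 0.38 ± 0.10 (0.034). Slc1a2 stood the other way, at 8698, 9443, 9759 and 10473 CPM at day 60 and 10811, 10658, 11119 and 11318 CPM in Troy-GFP, again with no overlap. Its difference of -0.19 ± 0.05 did not pass (limma adjusted p = 0.055). Slc1a3 (0.14 ± 0.06), Gjb6 (0.15 ± 0.16), Kcnj10 (0.07 ± 0.14) and Glul (-0.13 ± 0.07) did not pass, and the median of the 8 was 0.15 against -0.01 over all genes. The Aqp4 call was lost without day-60 library 1 or 3 or Troy-GFP library 1, 2 or 4 (0.31 to 0.40), and the Atp1b2 call without day-60 library 2 or Troy-GFP library 1 or 2 (0.25 to 0.30). With cell cycle genes kept in clustering, Aqp4 did not pass (0.25, limma adjusted p = 0.27). With the mean of per-cell CPM, Atp1b2 did not (0.27, limma adjusted p = 0.21). Slc1a2 passed as lower without day-60 library 4 (-0.22) or Troy-GFP library 2 (-0.20). The day-60 mice were older, and these sorts differ in the sex genes and mouse line, which cannot be told apart from the sort.

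Among partner genes in the NSC-like class, Slc38a3, a glutamine transporter of astrocytes, rose at day 60 by 0.75 ± 0.10. The amino acid transporters Slc38a1 and Slc38a2 fell by 2.22 ± 0.47 and 1.67 ± 0.40, so 2 of 11 genes of the list rose and 2 fell. Kcnk1 rose by 0.39 ± 0.11 and Slc39a12 by 0.58 ± 0.11, and none of the 7 endfoot scaffold genes passed. With Troy-GFP libraries 1 and 2 left out, so that the named flow cell was shared, Gja1 remained past the threshold at 0.51 (limma adjusted p = 0.0012), while Atp1b2 (0.13, 0.47) and Aqp4 (0.26, 0.39) did not and Slc1a2 passed as lower (-0.23, 0.035). With cells thinned to 1000 transcripts none of the 3 passed (Gja1 0.28, limma adjusted p = 0.22).

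NSC-like cells of GLAST/EGF (77 cells, 60 of them in the same cluster as most Troy-GFP cells) did not differ detectably from those of Troy-GFP in any of the 8 members. The percentage of genes called was 0 of 3671 tested, and 203 genes had an unadjusted p under 0.05 in limma. Slc1a2 differed by 0.01 ± 0.06, Aqp4 by -0.01 ± 0.15, Gja1 by -0.02 ± 0.11 and Glul by 0.08 ± 0.09. Gjb6 had the widest difference, 0.48 ± 0.20 (limma adjusted p = 0.75). The interval these SEs give is wide for Gjb6, Kcnj10 (0.29 ± 0.17) and Aqp4, and narrower for both carriers (Slc1a3 0.12 ± 0.09).

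Progenitor-like cells of GLAST/EGF and Ki67-RFP did differ. All 6 members tested were higher in GLAST/EGF, where 15.6% of 6402 genes passed, 8.65% as higher and 6.92% as lower, with a member median of 1.80 against 0.01. Slc1a2 was at 1249, 1143, 1899 and 1808 CPM in GLAST/EGF and at 415, 346, 543 and 395 CPM in Ki67-RFP, a rise of 1.85 ± 0.16 (limma adjusted p = 8.5e-09). Atp1b2 was at 323, 253, 395 and 435 CPM against 99.3, 55.2, 69.7 and 170 CPM, a rise of 1.92 ± 0.24 (limma adjusted p = 3.7e-06). Neither gene overlapped between the sorts. Kcnj10 was at 166, 51, 125 and 121 CPM against 26.2, 31.9, 47.3 and 26.2 CPM, a rise of 1.74 ± 0.33 (limma adjusted p = 7.4e-04). Gja1 rose by 2.28 ± 0.40 and Slc1a3, the gate gene, by 1.53 ± 0.18. Glul rose least, by 0.57 ± 0.16 (limma adjusted p = 0.014), a call lost without GLAST/EGF library 3 or 4 or Ki67-RFP library 2 (0.47 to 0.50). The Glul call was also lost with the libraries of 1 flow cell (0.30, limma adjusted p = 0.38). Gjb6 had 7 transcripts against 1 (ratio 9.18, 95% interval 1.18 to 414), and Gjb6 and Aqp4 were not tested. The class was filled from different clusters, with 146 of 183 Ki67-RFP cells in cluster 7 and 76 of 106 GLAST/EGF cells in cluster 4. Within cluster 4, Slc1a2 was at 2107 ± 661 CPM in GLAST/EGF and 1221 ± 336 CPM in Ki67-RFP (SD over libraries), and within cluster 7 at 386 ± 173 and 239 ± 39.8 CPM. Glul in cluster 4 was at 445 ± 123 and 449 ± 80.2 CPM. At a coarser clustering, 3 of the members passed and Glul was at -0.03. Gja1 (1.36, limma adjusted p = 0.058) and Kcnj10 (0.67, 0.35) did not pass there. Of the partner genes, Fxyd1 (2.65 ± 0.45) and the scaffold genes Dtna (2.05 ± 0.20) and Mlc1 (1.85 ± 0.30) rose in the same comparison.

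The members did not keep fixed proportions between clusters. In Troy-GFP, the Thbs4-led cluster (55 cells) held less of some members than the larger cluster (154 cells). Aqp4 was at 334 ± 78.6 against 1313 ± 154 CPM and Gjb6 at 92.2 ± 24.3 against 331 ± 98.4 CPM (SD over 4 libraries). Gja1 was at 1161 ± 125 against 2175 ± 185 CPM and Atp1b2 at 2315 ± 531 against 4372 ± 553 CPM. The other members differed less, with Slc1a2 at 9387 ± 349 against 11558 ± 635 CPM, Glul at 2169 ± 222 against 2719 ± 193 CPM, and Kcnj10 at 334 ± 94.1 against 283 ± 49.2 CPM.

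At day 60, an unnamed cluster led by Agt, which encodes angiotensinogen, held more of both channels, connexin 30 and Atp1b2 than the main cluster. Its levels rest on 28 cells, with the SD over 3 libraries, and those of the main cluster on 4 libraries. Kcnj10 was at 1212 ± 278 CPM there and at 299 ± 27.7 CPM in the main cluster of 225 cells, and Gjb6 at 1132 ± 73.3 against 328 ± 53.6 CPM. Aqp4 was at 2566 ± 431 against 1423 ± 266 CPM, and Atp1b2 at 7381 ± 1308 against 4851 ± 346 CPM. Both glutamate carriers and Glul were lower in the same cells, with Slc1a3 at 1784 ± 385 against 5156 ± 297 CPM, Slc1a2 at 5588 ± 561 against 9704 ± 902 CPM and Glul at 1275 ± 318 against 2437 ± 88.6 CPM. Gja1 was at 2679 ± 629 and 2707 ± 118 CPM. In the mixed sort, the Islr-led cluster (20 cells, 3 libraries) held 8889 ± 2077 CPM of Slc1a3 and 4147 ± 1250 CPM of Slc1a2, with Aqp4 at 3256 ± 674 and Kcnj10 at 1540 ± 446 CPM. The Npy-led cluster (19 cells, 2 libraries) held 1601 ± 42 CPM of Gja1 and 3494 ± 1487 CPM of Glul but 19.9 ± 28.2 CPM of Aqp4. At day 2, the Rrm2-led cluster (48 cells) held 189 ± 138 CPM of Slc1a3 and 236 ± 73.2 CPM of Glul, and the larger Nrep-led cluster (160 cells) held 28.6 ± 21.8 and 190 ± 47.4 CPM. Aqp4 and Gjb6 were at 0 in both. These are descriptions of clusters made from other genes of the same cells.

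**Figure D4:**
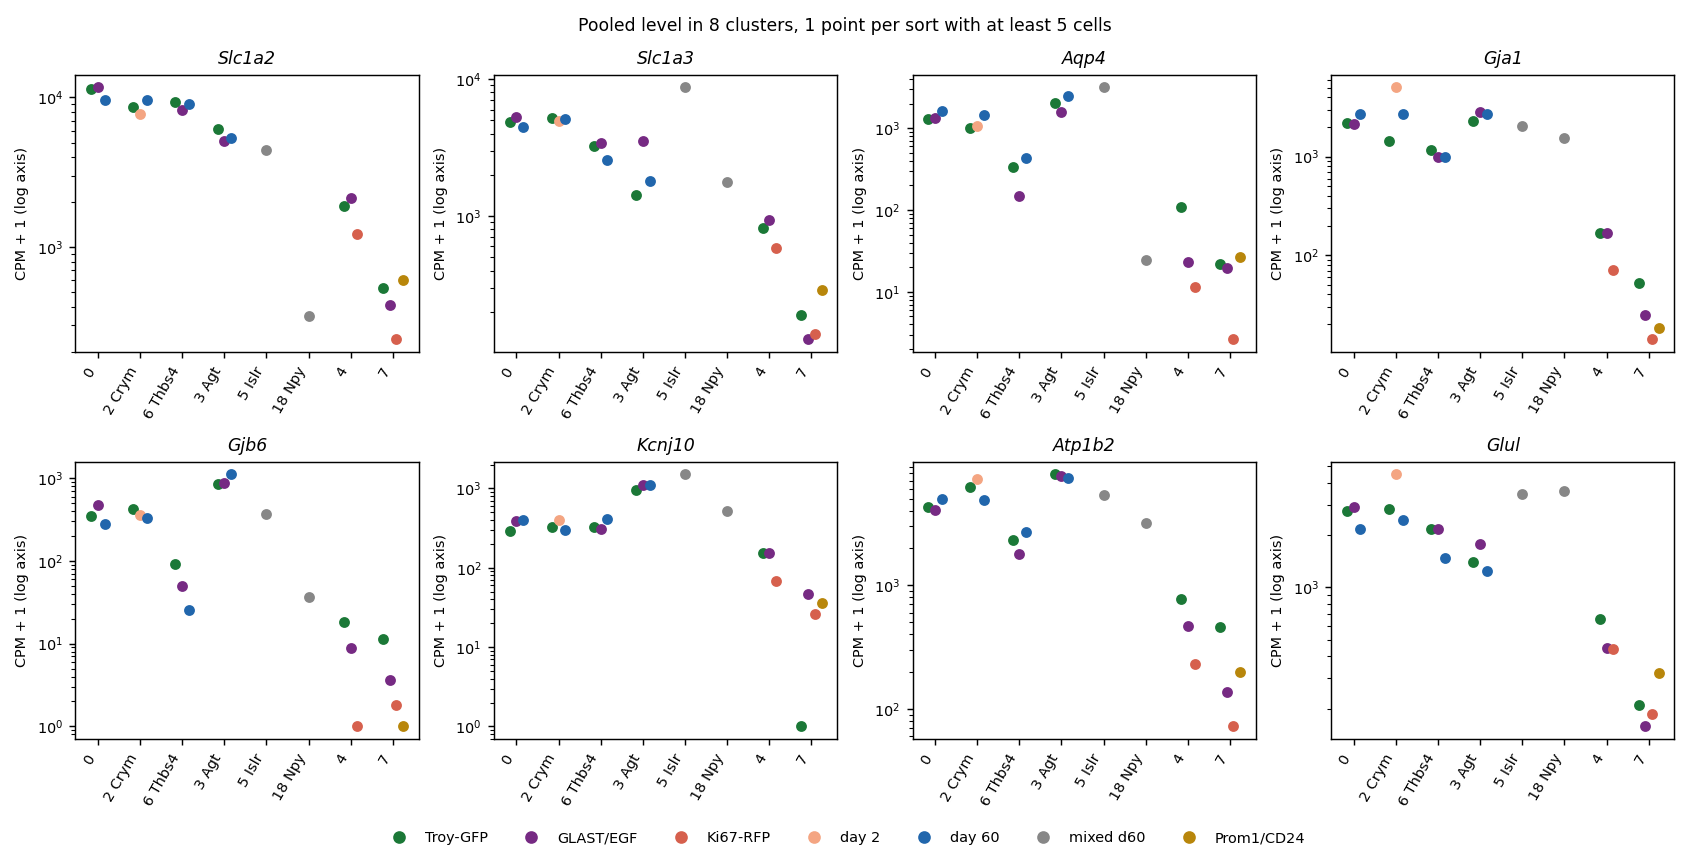
Level of each gene as CPM + 1 (log axis) in 8 clusters, with 1 point per sort that has at least 5 cells in the cluster, pooled over its libraries. Gjb6 and Kcnj10 stand higher in the unnamed, Agt-led cluster 3 than in the NSC-like clusters 0, 2 and 6, Aqp4 and Gjb6 are low in the Thbs4-led cluster 6, and all members are low in cluster 7.

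Ratios of 2 genes within a library ask whether members differed by unequal amounts. In a summed library the 2 genes may come from different cells. With 4 against 4 libraries the smallest possible p of the exact 2-sided permutation test is 0.0286, which 18 of 41 ratios reached. Adjusted over the 41 it is 0.0651, so none passed 0.05. The log2 ratio of Slc1a3 to Slc1a2 was -1.29 in Troy-GFP, -0.98 at day 60 and 0.66 in mixed day-60. The mixed sort differed from day 60 by 1.64 in this ratio, by 3.21 in Glul to Slc1a2 and by -2.81 in Aqp4 to Kcnj10. Each of these 3 was at the smallest p, with no overlap between libraries. Glul to Slc1a2 was higher by 1.54 in Ki67-RFP than in Troy-GFP and lower by 1.94 at day 60 than at day 2, both at the smallest p. Gja1 to Gjb6 differed by -1.43 in Prom1/CD24 relative to Troy-GFP and by -0.53 in NSC-like cells of GLAST/EGF relative to those of Troy-GFP, at the smallest p. In NSC-like cells, Slc1a3 to Slc1a2 differed by 0.33 between day 60 and Troy-GFP (smallest p), and Glul to Slc1a2 by 0.06 (exact permutation p = 0.51).

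**Figure D5:**
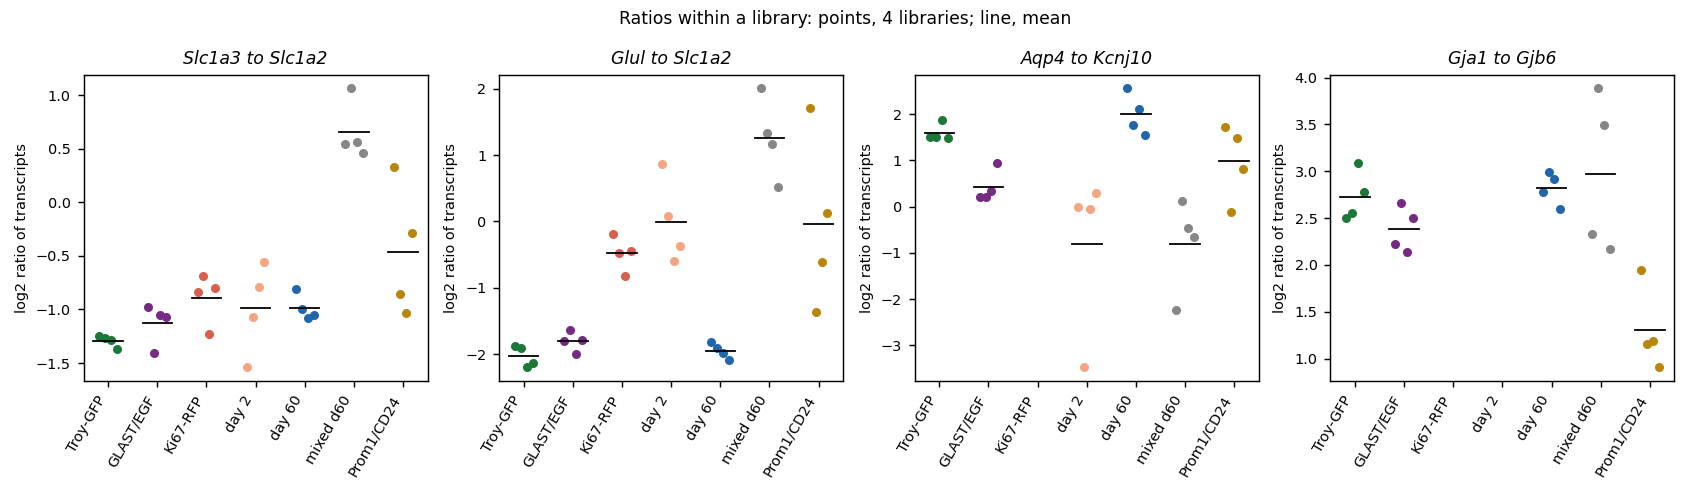
Log2 ratio of summed transcripts of 2 genes within a library, by sort; points are libraries, lines are means of 4, and sorts with fewer than 10 transcripts of either gene are left out. The mixed day-60 libraries lie highest for Slc1a3 to Slc1a2, and Glul to Slc1a2 is low in Troy-GFP, GLAST/EGF and day 60.

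Among 7063 genes with enough transcripts, those whose level followed the mean of the 8 members most closely over the 28 libraries included Gpr37l1 (Pearson r = 0.988), Sparcl1 (0.983), Htra1 (0.977), Prnp (0.976), Ttyh1 (0.975), Bcan (0.972), Apoe (0.969), Chst2 (0.968) and Hepacam (0.967). The closest single partner was Gpr37l1 for Atp1b2 (0.992), Dtna for Slc1a2 (0.979), Mmd2 for Slc1a3 (0.975), Sparcl1 for Aqp4 (0.975) and Cldn10 for Gja1 (0.974). It was Add3 for Glul (0.967), Fam20a for Gjb6 (0.961) and Cmtm5 for Kcnj10 (0.952). Between members, r ran from 0.687 (Slc1a2 with Kcnj10) to 0.968 (Aqp4 with Atp1b2). The 28 points share sorts and cell composition, so these values are a description.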

How the data were processed

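Per the labels' protocols, single cells were sorted 1 per well and made into libraries by a CEL-seq type protocol, and BWA 0.6.2-r126 and the mm10 build are named in the submitters' processing notes. The authors deposited, per well and gene, estimated transcript numbers: 4735106 of 4735115 values above 0 equal whole barcode counts corrected for collisions in a pool of 256, within 1e-06. From these, wells with at least 1000 transcripts over gene rows were kept, 87 spike-in rows were left out, and cells were summed per library. No doublet caller was run and no 2 cells were identical. Comparisons used limma 3.58.1 in R 4.3.3 (voom weights, trimmed mean of M values, a filter on low values, Benjamini-Hochberg over all genes, threshold 0.05). Fits were tested on simulated data. A class entered with at least 5 cells in each of at least 3 libraries per group. Cells were clustered without the 8 genes in scanpy 1.11.5 (igraph 0.11.9, Leiden resolution 1.0, seed 7), and ratios had 0.5 transcripts added per gene. Libraries with the same number correlated at -0.0798 to 0.0689, so numbers were not taken as pairs. Named are the 8 genes, at most the 4 largest changes past the threshold per list, and the closest correlates. The genes, lists and tests were chosen with earlier results of these data known. Some genes of the lists are not reported here.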

Additional observations from a re-analysis of the deposited data

Results flagged for a closer look

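In all, 10 of 104 groups of 4 libraries had 1 library whose gap to the nearest other exceeded the 95% critical share of the range in Dixon's test. Chance flags about 1 in 20 where values are normally distributed. For genes near 0 this rate does not hold, since a single library above 0 fixes the flag. Slc1a2 at day 60 was 6362 CPM in library 1, where the median of the 4 was 7663 CPM. Atp1b2 in Ki67-RFP was 174 CPM in library 4 (median 80.7 CPM), and Atp1b2 in NSC-like cells of day 60 was 4336 CPM in library 4 (median 4890 CPM). Gjb6 in GLAST/EGF was 64.2 CPM in library 2 (median 118 CPM). The remaining 6 concern a gene at or near 0. Aqp4 in Ki67-RFP was 14 CPM in library 4, and in its progenitor-like cells 11.9 CPM, both with a median of 0. Gjb6 in Ki67-RFP was 1.81 CPM in library 3, and in its progenitor-like cells 2.48 CPM, again with a median of 0. Gjb6 at day 2 was 24.4 CPM in library 3 (median 0), the library with 3 of the 5 NSC-like cells. Aqp4 in progenitor-like cells of Troy-GFP was 217 CPM in library 1 (median 38.5 CPM).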

How the results depend on the processing

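Alternatives were another scaling, no filter, limma with trend, thinned cells, 2000 transcripts per cell, observed barcodes, mean per-cell CPM, flow cell, clustering, 5 transcripts added in ratios, a replicate block and each library left out. Day 2 without its NSC-like cells was added after seeing the data. Of the members' folds, 1278 were counted as unchanged, 42 became weaker, 15 stronger and 3 reversed. An unchanged fold kept its side of the threshold and, where it passed, its direction. A fold that passed in neither fit could change sign and still count as unchanged. With each library left out, all 8 members stayed past the threshold in Ki67-RFP against Troy-GFP, day 60 against day 2 and GLAST/EGF against Ki67-RFP.

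Counts of members past the threshold moved as follows. Day 2 against Ki67-RFP (1) gave 2 with no filter, 0 with limma trend, thinning or mean per-cell CPM, 2 with the replicate block, 2 without NSC-like cells and 0 to 3 with a library left out. There Atp1b2 reversed to -0.28 without NSC-like cells. GLAST/EGF against Troy-GFP (7) gave 4 with mean per-cell CPM. NSC-like day 60 against Troy-GFP (3) gave 5 with no filter, 1 with limma trend, 0 thinned, 4 with the replicate block, where Slc1a2 passed as lower, and 1 to 4 with a library left out. NSC-like GLAST/EGF against Troy-GFP (0) gave 1 with no filter, Slc1a2 at -0.13. Progenitor-like cells (6) gave 3 at Leiden resolution 0.5, with Glul at -0.026. With the block, Gjb6 in Prom1/CD24 against Troy-GFP was -1.0 (limma adjusted p = 0.062), and Gja1 passed in day 2 against Ki67-RFP (3.00). The block changed no other call of a member.

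Counts of all genes moved with thinning, which also left fewer genes to test. It gave 1174 of 1752 tested, for 5005 of 8396 (Ki67-RFP against Troy-GFP), 1280 of 1732 for 5168 of 7648 (day 60 against day 2), 430 of 1498 for 1982 of 6952 (day 2 against Ki67-RFP), 275 of 1329 for 2379 of 7818 and 699 of 1495 for 2806 of 7798 (GLAST/EGF against Troy-GFP and Ki67-RFP). It gave 311 of 778 for 1477 of 5680 (Prom1/CD24), 1020 of 1889 for 3528 of 8152 (mixed), 17 of 1032 for 149 of 6139 (NSC-like day 60) and 90 of 663 for 997 of 6402 (progenitor-like). Mean per-cell CPM gave 1235 (GLAST/EGF against Troy-GFP), 4213 (against Ki67-RFP) and 94 (NSC-like day 60). Libraries of 1 flow cell gave 1024 and 1651 for those GLAST/EGF comparisons, 579 for Prom1/CD24, 83 for NSC-like day 60 and 396 for progenitor-like. No filter gave 4581 (Prom1/CD24) and 448 for 0 (NSC-like GLAST/EGF), and limma trend gave 949 (Prom1/CD24). Leiden resolution 0.5 gave 286 (NSC-like day 60), 48 (NSC-like GLAST/EGF) and 353 (progenitor-like), and clustering with cell cycle genes gave 651 (progenitor-like). Leaving out Troy-GFP library 2 or 3 gave 964 or 958 for Prom1/CD24. For NSC-like day 60, leaving out day-60 library 2 gave 81 and Troy-GFP library 2 gave 98. For NSC-like GLAST/EGF, the block, or leaving out Troy-GFP library 2, gave 1. Beyond the fewer genes or libraries that an alternative leaves, the cause of these changes was not tested. Few transcripts of Gjb6 and Aqp4 were counted in Ki67-RFP and day 2, so their folds there are imprecise, and Prom1/CD24 is limited by its few cells and low totals.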
